A study of Mus musculus with 35 samples.

Results

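The effect of JAK2-V617F was read by RNA sequencing in LT-HSCs, the long-term stem cells of the blood, from mice that had lost 1 allele of Ezh2. The comparison takes the 8 libraries titled JAK2V617F; Ezh2 +/- against the 7 titled SclCre; Ezh2 +/- without JAK2V617F, which makes 15 of the 35 libraries of the series. All of these mice carried SclCre, a Cre recombinase driven by control sequences of the blood stem cell gene Scl, so by label both groups share the Cre and the heterozygous Ezh2 genotype and differ in JAK2V617F. The Ezh2 counts of some libraries go against the label, as given below. The other libraries were 6 JAK2V617F; Ezh2 -/-, 4 Ezh2 -/-, 6 JAK2V617F with intact Ezh2 and 4 SclCre controls. The labels give no age, no treatment that activates the Cre and no animal of origin, so the p-values rest on the spread among libraries, which may in part be technical. Batch 1 held 3 JAK2V617F; Ezh2 +/- and 3 Ezh2 +/- libraries, and batch 2 held 5 and 4. By label, the JAK2V617F; Ezh2 +/- libraries came from 5 females and 3 males, and the Ezh2 +/- libraries from 3 females and 4 males. Each library was made from 1000 sorted cells and held 20.95 to 42.25 M counts (M, mega) in JAK2V617F; Ezh2 +/- libraries and 13.55 to 34.17 M in Ezh2 +/- libraries.

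JAK2 is the kinase that sits on the receptors for erythropoietin and related cytokines and passes their signal to STAT transcription factors, above all STAT5. The V617F change makes the kinase active without ligand and is the typical driver of myeloproliferative neoplasms, blood diseases that begin in a stem cell. EZH2 is the catalytic subunit of the Polycomb complex PRC2, which silences genes by methylating histone H3, and its loss is found together with JAK2-V617F in some of these diseases. LT-HSCs are mostly quiescent, divide rarely and self-renew.

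The label was checked on marker genes. Of the defining LT-HSC genes, Kit had 699 to 1501 CPM (counts per M of the library's scaled total) in JAK2V617F; Ezh2 +/- libraries and 757 to 1883 CPM in Ezh2 +/- libraries, and Procr, Fgd5, Hlf, Mecom, Slamf1 and Ly6a were detected in every library of both groups. The T cell gene Cd3e was at 0 in all 8 JAK2V617F; Ezh2 +/- libraries and in 6 of 7 Ezh2 +/- libraries. Of the eosinophil and basophil genes, Prg2 had 115 to 264 CPM in 4 of 8 JAK2V617F; Ezh2 +/- libraries and at most 2.72 CPM in the others, against at most 3.60 CPM in Ezh2 +/- libraries. Epx reached 54.4 CPM in JAK2V617F; Ezh2 +/- libraries against 1.12 CPM in Ezh2 +/- libraries, and Prss34 reached 53.4 against 2.39 CPM. Of the 13 tested genes of the mast cell, basophil and eosinophil list, Prg2 alone passed the test below. The list summed to 395 to 827 CPM in JAK2V617F; Ezh2 +/- libraries and 408 to 716 CPM in Ezh2 +/- libraries. Neutrophil granule genes were present in both groups. Elane had 91.8 to 1315 CPM in JAK2V617F; Ezh2 +/- libraries against 1.15 to 716 CPM in Ezh2 +/- libraries. The 38 genes of the neutrophil and monocyte list summed to 1380, 5302 and 15670 CPM (lowest, median, highest) in JAK2V617F; Ezh2 +/- libraries and to 988, 4065 and 6133 CPM in Ezh2 +/- libraries. Those ranges overlapped, 34 of the 38 genes had a positive log2 change with a median of 0.57, and 1 passed the test below, which was lower. The part of any of these markers in the results was not tested. Some libraries also stood apart from their labels. The Ezh2 +/- library of batch 1 replicate 1 is labelled male but had 394 CPM of Xist, the RNA of the inactive X chromosome. That value is per M of the unscaled total. The Ezh2 +/- library of batch 1 replicate 3 had 0 of 831 Ezh2 counts in a separately counted part of Ezh2, which allows a share of up to 0.361% at 3 counts. Without both of these doubted libraries, 0 of the 13 mast cell, basophil and eosinophil genes passed. Counts of called genes are given below with and without these doubted libraries where that matters.

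Of 14945 genes tested in Ezh2-heterozygous cells, 1384 changed with JAK2V617F, which is 9.26% of them. Of these, 732 (4.9%) were higher and 652 (4.36%) were lower in JAK2V617F; Ezh2 +/- libraries, by the quasi-likelihood test of edgeR at a Benjamini-Hochberg adjusted p under 0.05, and all adjusted p-values below are of this test. The median log2 change over all genes tested was -0.015. Among the called genes 224 were more than 2-fold higher and 247 more than 2-fold lower, and the median size of a called change was 0.7 on the log2 scale. In 206 of the 1384 called genes the libraries of the groups did not overlap. Over all genes tested, 0.769% had every JAK2V617F; Ezh2 +/- library above every Ezh2 +/- library and 0.662% had every one below. With both doubted libraries left out, 958 genes passed, 534 higher and 424 lower.

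**Figure D1:**
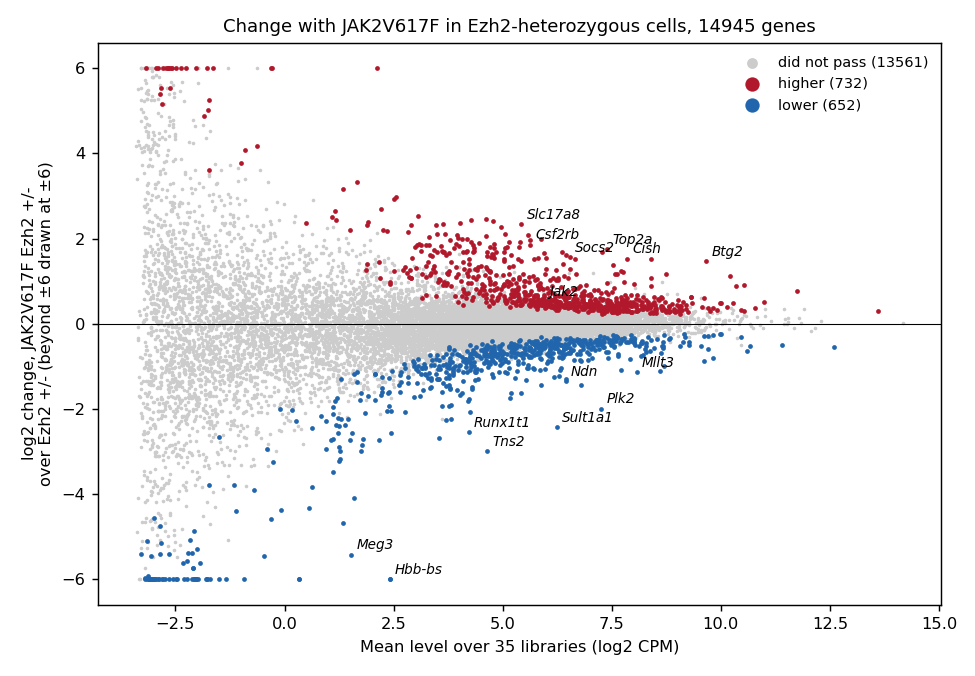
Each point is 1 of 14945 genes. The x axis is the mean level over 35 libraries in log2 CPM and the y axis the log2 change of JAK2V617F; Ezh2 +/- over Ezh2 +/- libraries. The 732 called higher genes are red and the 652 called lower genes blue. Changes beyond 6 are drawn at 6 or -6. Of the labelled genes, Slc17a8 at 2.33 and Csf2rb at 1.86 lie above the line, and Tns2 at -2.998 and Runx1t1 at -2.55 below it.

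Jak2 itself and Ezh2 were read first. Jak2 was higher, with 49.4, 61.4 and 112 CPM (lowest, median, highest) in JAK2V617F; Ezh2 +/- libraries against 33.1, 54.1 and 73.8 CPM in Ezh2 +/- libraries. Its log2 change was 0.52 ± 0.13 (SE, adjusted p = 0.00729), and 3 of the 8 JAK2V617F; Ezh2 +/- libraries lay above every Ezh2 +/- library. The gene count does not separate the V617F allele from the normal one. Ezh2 had 32.02, 48.3 and 74.2 CPM in JAK2V617F; Ezh2 +/- libraries against 24.02, 37.6 and 49.4 CPM in Ezh2 +/- libraries, a log2 change of 0.41 ± 0.18, which did not pass (adjusted p = 0.152). The separately counted part of Ezh2, 178 bases long, held 6.69 ± 1.57 percent of the Ezh2 counts in JAK2V617F; Ezh2 +/- libraries (SD, n = 8) and 4.61 ± 3.63 percent in Ezh2 +/- libraries (n = 7). The difference of 2.08 percentage points did not pass an exact two-sided permutation test (p = 0.164). The JAK2V617F; Ezh2 +/- libraries ran over 4.08 to 8.495 percent and the Ezh2 +/- libraries over 0 to 9.497 percent. For comparison, the part held 6.34 to 9.27 percent in JAK2V617F libraries with intact Ezh2, 6.02 to 8.72 percent in controls and 0 to 0.478 percent in libraries without Ezh2. Of the JAK2V617F; Ezh2 +/- libraries 6 of 8 lay within the range of the intact libraries and 2 below it. Of the 7 Ezh2 +/- libraries 1 lay within that range and 5 below it. The part of any difference in Ezh2 dose between the groups in the results was not tested. Among Ezh2 +/- libraries, batch 1 replicate 3 had none of the part, as in the null libraries, and batch 2 replicates 1 and 3 had 1.74 and 1.77 percent. Without the Ezh2 +/- library of batch 1 replicate 1 the difference was 2.90 points, with an exact p of 0.0493, and no other alternative was under 0.05. The permutation p was 0.115 without both doubted libraries, 0.334 without the Ezh2 +/- library of batch 1 replicate 3 and 0.0952 in batch 2 alone. The permutation test took no account of batch.

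The clearest group among the higher genes was that of cell division. Of 50 genes of the spindle, the kinetochore and the mitotic kinases, 42 rose and none fell, against a background of 4.9% of genes higher. All 50 had a positive log2 change, with a median of 1.71 against -0.02 over all genes tested. Their summed level was 1747, 2717 and 3420 CPM in JAK2V617F; Ezh2 +/- libraries against 448, 847 and 1337 CPM in Ezh2 +/- libraries, with no overlap between the groups. In 26 of the 42 called genes every JAK2V617F; Ezh2 +/- library lay above every Ezh2 +/- library, and the same number, 42, passed without both doubted libraries.

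Ccnb1, cyclin B1, which activates CDK1 for entry into mitosis, had 14.7, 30.8 and 50.7 CPM in JAK2V617F; Ezh2 +/- libraries against 1.67, 4.21 and 10.9 CPM in Ezh2 +/- libraries. The groups did not overlap, and the log2 change was 2.37 ± 0.32 (adjusted p = 4.69e-06). Pbk, a mitotic kinase, had 40.1, 97.7 and 116 CPM in JAK2V617F; Ezh2 +/- libraries against 10.3, 18.4 and 36.4 CPM in Ezh2 +/- libraries, again without overlap (log2 change 2.08 ± 0.24, adjusted p = 7.22e-07). Top2a, the topoisomerase that untangles chromosomes before they separate, was the most abundant of those named here, with 166, 278 and 346 CPM in JAK2V617F; Ezh2 +/- libraries against 20.2, 95.4 and 114 CPM in Ezh2 +/- libraries (log2 change 1.75 ± 0.23, adjusted p = 4.25e-06). Large rises were also measured for the condensin subunit Ncapg (log2 change 2.42 ± 0.35), the spindle motor Kif11 (2.27 ± 0.35), the separase Espl1 (2.31 ± 0.41), the motor Kif2c, which takes microtubules apart (2.34 ± 0.46), the kinetochore gene Spc24 (2.10 ± 0.27) and the motor Kif20a (1.28 ± 0.16). For each of these genes all 8 JAK2V617F; Ezh2 +/- libraries lay above all 7 Ezh2 +/- libraries.

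Genes of DNA replication rose by smaller steps. Of 50 such genes 30 rose and none fell, against 4.9% higher among all genes tested, 48 had a positive log2 change, and the median was 0.76. Leaving out both doubted libraries, 23 rose. The list summed to 3777, 5131 and 5716 CPM in JAK2V617F; Ezh2 +/- libraries and to 2094, 3070 and 4017 CPM in Ezh2 +/- libraries, ranges that overlapped at their ends. Tyms, which makes thymidylate for DNA, had 80.5, 120 and 151 CPM in JAK2V617F; Ezh2 +/- libraries against 38.2, 51.9 and 76.6 CPM in Ezh2 +/- libraries (log2 change 1.12 ± 0.17, adjusted p = 2.45e-05). Lig1, the ligase that joins replicated fragments, had 101, 160 and 162 CPM against 35.9, 62.4 and 101 CPM in the same order of groups (1.17 ± 0.17, adjusted p = 2.64e-05). Prim1, a primase subunit, rose by 1.26 ± 0.19 (adjusted p = 3.34e-05) and Esco2, which ties sister chromatids together, by 2.43 ± 0.37 (adjusted p = 3.34e-05). In these 4 genes the groups did not overlap. The repressor E2f8, an E2F target that closes the S phase programme, rose by 2.11 ± 0.44 (adjusted p = 0.00182). The helicase subunits Mcm3, Mcm4, Mcm5, Mcm6 and Mcm7 were all called higher, with log2 changes of 0.68, 0.61, 0.96, 0.60 and 0.67. In bulk samples, a change in the number of cells that express a gene and a change in its RNA per cell cannot be told apart, here and in the groups below.

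**Figure D2:**
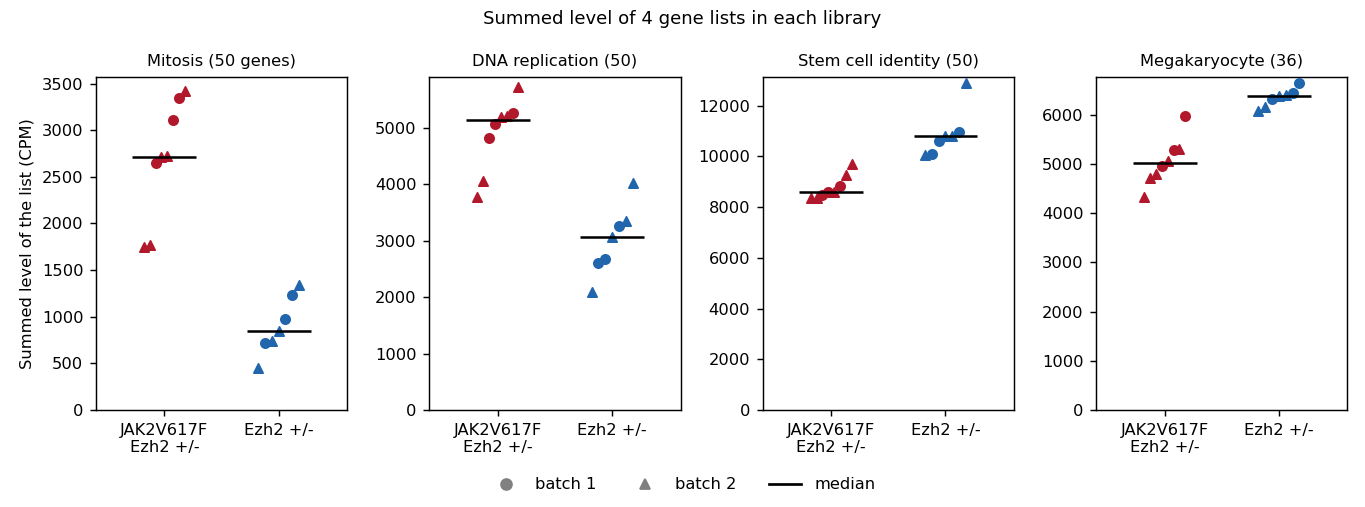
Each point is 1 library, 8 with JAK2V617F at the left of each panel and 7 Ezh2 +/- at the right, and the y axis is the summed level of a gene list in CPM. Circles are batch 1, triangles batch 2, and bars are medians. The mitosis libraries with JAK2V617F start at 1747 CPM, above the highest Ezh2 +/- library at 1337 CPM, and the stem cell identity and megakaryocyte libraries with JAK2V617F lie below every Ezh2 +/- library.

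Promoters of some division and replication genes are shown because these lists rose together. Each gene shown was picked from called genes whose window held the motif searched for, and does not stand for its list. The sequences are RefSeq's, on build GRCm38.p6, and run from 250 bases before to 50 bases after a gene's start, 5′ to 3′ along the gene's strand, with the motif in capitals on whichever strand it was found. Top2a lies at chr11:99024140-99024439 on the minus strand and Ndc80, a kinetochore gene with a log2 change of 1.58, at chr17:71526808-71527107 on the minus strand. The capitals mark TTTGAA, the core of the cell cycle homology region, an element known from genes expressed in G2 and mitosis.
Top2a: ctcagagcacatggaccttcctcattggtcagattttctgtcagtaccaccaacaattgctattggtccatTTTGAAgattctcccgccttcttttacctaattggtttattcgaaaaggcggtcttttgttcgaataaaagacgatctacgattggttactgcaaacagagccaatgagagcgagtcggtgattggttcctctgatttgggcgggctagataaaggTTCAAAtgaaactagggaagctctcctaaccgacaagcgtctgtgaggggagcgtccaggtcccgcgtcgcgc
Ndc80: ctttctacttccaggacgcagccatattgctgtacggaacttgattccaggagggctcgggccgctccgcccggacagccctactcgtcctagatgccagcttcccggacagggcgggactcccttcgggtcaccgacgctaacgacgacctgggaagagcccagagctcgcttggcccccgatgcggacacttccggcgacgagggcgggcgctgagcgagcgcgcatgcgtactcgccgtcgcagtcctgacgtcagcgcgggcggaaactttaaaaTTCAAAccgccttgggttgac
Mcm5, at chr8:75109259-75109558 on the plus strand, and Mcm6, at chr1:128359656-128359955 on the minus strand, are the replication genes shown. Here the capitals mark TTTCCCGC or TTTGGCGC, forms of the site bound by E2F factors, on either strand.
Mcm5: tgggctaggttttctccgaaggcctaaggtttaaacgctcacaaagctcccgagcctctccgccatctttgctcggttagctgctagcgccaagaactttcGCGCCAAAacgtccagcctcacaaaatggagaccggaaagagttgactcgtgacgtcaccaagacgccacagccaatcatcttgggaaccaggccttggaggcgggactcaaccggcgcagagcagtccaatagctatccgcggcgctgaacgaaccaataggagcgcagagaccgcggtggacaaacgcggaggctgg
Mcm6: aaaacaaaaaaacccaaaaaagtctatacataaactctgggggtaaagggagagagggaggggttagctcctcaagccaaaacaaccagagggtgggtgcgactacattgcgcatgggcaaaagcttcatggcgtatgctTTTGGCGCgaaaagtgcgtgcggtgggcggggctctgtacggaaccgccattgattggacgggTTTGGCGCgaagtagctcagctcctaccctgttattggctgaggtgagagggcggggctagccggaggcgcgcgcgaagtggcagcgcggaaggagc
A promoter window was found for 35 of the 42 called mitosis genes, and 28 of them (80.0%) held TTTGAA on either strand, against 14.8% of 11708 genes tested that had a window. Over all 42 mitosis genes with a window, called or not, the share was 76.2%. The E2F forms stood in 6 of 24 called replication genes with a window (25%) and in 12 of all 40 (30%), against 3.2% of genes tested. These counts describe letters in the windows, and no binding was measured. A TTTGAA can lie inside a TTCNNNGAA, the motif searched below, and such overlaps were not removed.

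STAT5 targets moved in both directions. Of 26 tested, 4 rose and 4 fell, against 4.9% higher and 4.36% lower among all genes tested. The median log2 change was 0.15. Socs2 and Cish, feedback inhibitors of the cytokine signal, were among those that rose, while the inhibitors Socs1 and Socs3 did not pass. Socs3 had 115 to 238 CPM in JAK2V617F; Ezh2 +/- libraries against 73.6 to 332 CPM in Ezh2 +/- libraries. Socs1 had 0.557 to 3.05 CPM against 0.0677 to 4.18 CPM in the same order. Socs2 had 121, 162 and 216 CPM in JAK2V617F; Ezh2 +/- libraries against 38.3, 49.4 and 120 CPM in Ezh2 +/- libraries, with no overlap (log2 change 1.56 ± 0.19, adjusted p = 9.04e-07). The highest Ezh2 +/- value belonged to the library of batch 2 replicate 2, and the others did not exceed 56.6 CPM. Cish, another feedback inhibitor, had 176, 429 and 648 CPM in JAK2V617F; Ezh2 +/- libraries against 107, 126 and 181 CPM in Ezh2 +/- libraries (1.53 ± 0.20, adjusted p = 4.09e-06). For Cish 7 of 8 JAK2V617F; Ezh2 +/- libraries lay above every Ezh2 +/- library. Dusp6, a phosphatase that dampens ERK, rose by 1.07 ± 0.22 (adjusted p = 0.00168), and the cytokine Osm, oncostatin M, by 1.84 ± 0.53 (adjusted p = 0.0234). The adjusted p of Osm was 0.0575 without both doubted libraries.

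The members that fell were cyclin and survival genes and Trib3. Ccnd1, cyclin D1, had 16.2, 28.2 and 51.5 CPM in JAK2V617F; Ezh2 +/- libraries against 41.4, 54.3 and 83.9 CPM in Ezh2 +/- libraries (log2 change -1.05 ± 0.19, adjusted p = 4.31e-04). Bcl2, which protects cells from apoptosis, had 105, 113 and 146.2 CPM against 146.8, 188 and 209 CPM in the same order of groups, just short of overlap (-0.60 ± 0.12, adjusted p = 9.22e-04). Trib3, a stress-induced pseudokinase, fell by 0.92 on the log2 scale (SE 0.24, adjusted p = 0.012). Ccnd2, cyclin D2, fell by 0.26 (SE 0.09, adjusted p = 0.0448), a call lost, with an adjusted p of up to 0.119, without any 1 of 9 libraries. These were the Ezh2 +/- libraries of batch 1 replicates 2 and 3 and batch 2 replicates 3 and 4, and the JAK2V617F; Ezh2 +/- libraries of batch 1 replicate 1 and batch 2 replicates 1, 3, 4 and 5. Other well-known targets did not pass. Pim1 had 25.8, 31.3 and 38.2 CPM in JAK2V617F; Ezh2 +/- libraries and 18.7, 23.1 and 60.5 CPM in Ezh2 +/- libraries (0.14 ± 0.18, adjusted p = 0.714), and Myc 301, 820 and 1164 CPM against 389, 549 and 635 CPM in the same order (0.40 ± 0.17, adjusted p = 0.137).

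The promoter of Cish is shown because it was the only called higher STAT5 target with the motif among the 2 that had a window. It lies at chr9:107296409-107296708 on the plus strand of GRCm38.p6, and the capitals mark TTCNNNGAA, the site form of STAT5, where N is any base.
Cish: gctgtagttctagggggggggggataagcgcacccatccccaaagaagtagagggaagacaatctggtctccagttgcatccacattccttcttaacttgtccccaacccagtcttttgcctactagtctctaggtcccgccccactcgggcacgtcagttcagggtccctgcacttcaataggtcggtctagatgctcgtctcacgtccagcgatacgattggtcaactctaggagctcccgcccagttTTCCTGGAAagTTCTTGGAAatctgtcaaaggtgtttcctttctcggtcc
The window held 2 matches, the first at the annotated start and the second 11 bases after it, and 8.3% of the 11708 genes tested with a window held at least 1.

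Among the JAK and STAT genes themselves, 1 rose and 1 fell of 11, against 4.9% higher and 4.36% lower among all genes tested. The riser was Jak2. Jak3, the kinase of the lymphoid cytokine receptors, had 108, 144 and 168 CPM in JAK2V617F; Ezh2 +/- libraries against 156, 212 and 246 CPM in Ezh2 +/- libraries (log2 change -0.51 ± 0.13, adjusted p = 0.00967). That of Jak3 was 0.0504 without both doubted libraries. The signal carriers Stat3 and Stat5b had log2 changes of -0.24 ± 0.11 and -0.18 ± 0.14 that did not pass, and Jak1, Tyk2, Stat2, Stat4, Stat5a and Stat6 did not pass either.

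Of 36 cytokine receptor genes 1 rose and 5 fell, with a median log2 change of -0.22. The count that rose is not above the 4.9% of all genes that rose, and is no result about the list. The gene that rose, Csf2rb, encodes the beta chain shared by the receptors for IL-3, IL-5 and GM-CSF. It had 61.8, 89.3 and 98.7 CPM in JAK2V617F; Ezh2 +/- libraries against 14.7, 24.5 and 31.6 CPM in Ezh2 +/- libraries. The groups did not overlap, 7 of the 8 JAK2V617F; Ezh2 +/- values lay within 87.0 to 98.7 CPM, and the log2 change was 1.86 ± 0.20 (adjusted p = 1.73e-07). Its close copy Csf2rb2, the beta chain used only by IL-3 in mice, had 10.8, 19.9 and 31.9 CPM against 4.47, 15.02 and 18.01 CPM in the same order and did not pass (0.60 ± 0.32, adjusted p = 0.274). Reads of these near copies may be shared, so their counts are uncertain.

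Osmr, a receptor subunit for oncostatin M, was at 0 in all 8 JAK2V617F; Ezh2 +/- libraries and had 464 counts in all in Ezh2 +/- libraries, of which 1 library had none. Osmr was called lower (adjusted p = 0.00123). Against a limit of 3 counts over the group, its pooled level was at least 247-fold lower, a limit that covers counting error only and not the spread among libraries. Il10rb, Il21r and Tnfrsf1b were also called lower, but none of these 3 passed without both doubted libraries, while Osmr did. Without the JAK2V617F; Ezh2 +/- library of batch 1 replicate 3, 3 receptor genes fell. Epor, the erythropoietin receptor, had 6.63, 12.2 and 25.1 CPM in JAK2V617F; Ezh2 +/- libraries and 7.31, 12.5 and 27.7 CPM in Ezh2 +/- libraries (-0.25 ± 0.28, adjusted p = 0.660).

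**Figure D3:**
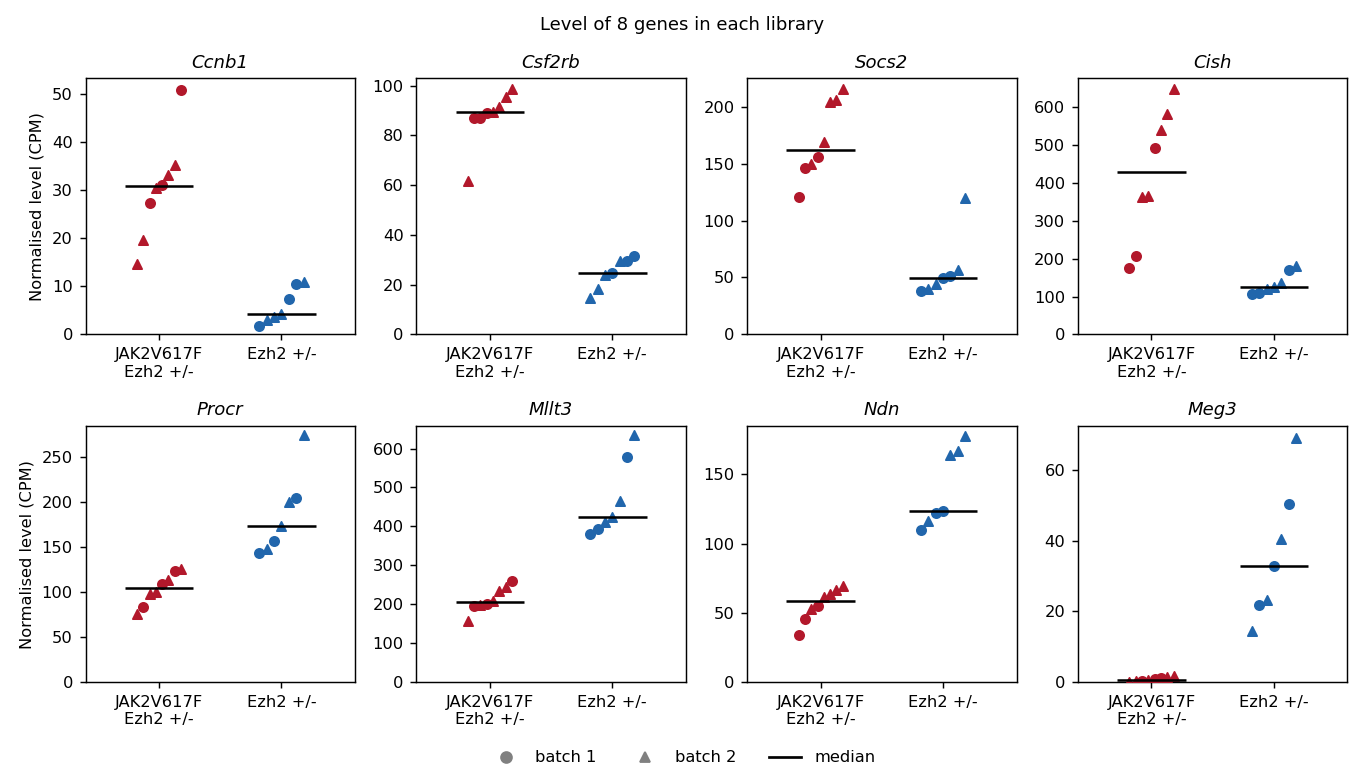
Each point is 1 library and each panel 1 gene, with the normalised level in CPM on the y axis, 8 JAK2V617F; Ezh2 +/- libraries at the left and 7 Ezh2 +/- at the right. Circles are batch 1, triangles batch 2, and bars are medians. Ccnb1, Csf2rb and Socs2 show no overlap with JAK2V617F higher, Procr, Mllt3, Ndn and Meg3 none with JAK2V617F lower, and Cish overlaps by 1 library.

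Stem cell identity genes fell. Of 50 genes known for LT-HSC identity or self-renewal, 25 fell and 1 rose, against 4.36% lower and 4.9% higher among all genes tested. The count that rose is not above that share and is no result about the list. The median log2 change was -0.44. Their summed level was 8346, 8588 and 9707 CPM in JAK2V617F; Ezh2 +/- libraries against 10040, 10800 and 12900 CPM in Ezh2 +/- libraries, with no overlap. With both doubted libraries left out, 20 fell. In 9 of the called genes every JAK2V617F; Ezh2 +/- library lay below every Ezh2 +/- library.

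Ndn, necdin, a growth suppressor kept on in quiescent LT-HSCs, had the smallest adjusted p of all genes tested. It had 33.9, 58.3 and 69.5 CPM in JAK2V617F; Ezh2 +/- libraries against 110, 124 and 178 CPM in Ezh2 +/- libraries (log2 change -1.35 ± 0.11, adjusted p = 3.44e-10). Mllt3, a regulator of stem cell maintenance, had 158, 205 and 259 CPM against 381, 425 and 634 CPM in the same order (-1.15 ± 0.12, adjusted p = 1.73e-07). Procr, the surface receptor EPCR that marks LT-HSCs, had 75.7, 105 and 126 CPM against 143, 174 and 274 CPM (-0.85 ± 0.16, adjusted p = 3.78e-04). None of the 3 overlapped between the groups. Runx1t1, a transcriptional corepressor, fell by 2.55 on the log2 scale (SE 0.30, adjusted p = 7.22e-07) and Sult1a1, a sulphotransferase, by 2.43 (SE 0.31, adjusted p = 1.88e-06). Smaller falls that passed were those of the transcriptional regulators Hlf (-0.52), Lmo2 (-0.59) and Prdm16 (-0.64). The 1 of the 50 identity genes that rose did so by 0.48 on the log2 scale and did not pass without both doubted libraries. Cd34 is not one of those 50. It belongs to 11 surface markers of stem cell sorting, of which 1 rose and 1 fell, against 4.9% higher and 4.36% lower among all genes tested. Its absence on the surface separates LT-HSCs from more mature progenitors. Going the opposite way to the falls above, Cd34 had 270, 355 and 468 CPM in JAK2V617F; Ezh2 +/- libraries against 120, 202 and 269 CPM in Ezh2 +/- libraries. It did not overlap and rose by 0.94 ± 0.16 on the log2 scale (adjusted p = 2.00e-04).

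Brakes of the cell cycle split. Of 18 tested, 3 rose and 5 fell, against 4.9% higher and 4.36% lower among all genes tested. The median was -0.01. Cdkn1c, the inhibitor p57 that holds LT-HSCs in quiescence and is imprinted, had 8.85, 13.98 and 18.3 CPM in JAK2V617F; Ezh2 +/- libraries against 28.1, 41.9 and 55.9 CPM in Ezh2 +/- libraries, without overlap (log2 change -1.54 ± 0.21, adjusted p = 4.69e-06). Rbl2, the retinoblastoma-like protein p130 of resting cells, fell by 0.70 on the log2 scale (SE 0.15, adjusted p = 0.00218), and Txnip by 0.88 (SE 0.20, adjusted p = 0.00405). Foxo1 and Foxo4, factors that hold back division, were called lower too, with adjusted p of up to 0.138 and 0.0835 when 1 library was left out. Without any 1 of 8 libraries, 3 brakes fell in place of 5. These were the Ezh2 +/- libraries of batch 1 replicate 2 and batch 2 replicates 1 and 2, and each JAK2V617F; Ezh2 +/- library of batch 2. Against this direction, Btg2, an antiproliferative gene that also responds early to signals, had 1107, 1424 and 1990 CPM in JAK2V617F; Ezh2 +/- libraries against 351, 383 and 862 CPM in Ezh2 +/- libraries (1.47 ± 0.25, adjusted p = 1.15e-04), without overlap. The others that rose were Cdkn2c, with an adjusted p of up to 0.0616 when 1 library was left out, and Rbl1, with 0.061 without both doubted libraries.

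Imprinted genes, expressed from 1 parental copy, fell wherever they passed. Of 24 imprinted genes 7 fell and none rose, against a background of 4.36% lower. Meg3, the long RNA expressed from the maternal copy of the Dlk1-Dio3 region, had 0, 0.753 and 1.72 CPM in JAK2V617F; Ezh2 +/- libraries against 14.5, 32.9 and 68.9 CPM in Ezh2 +/- libraries (adjusted p = 1.32e-06), with no overlap. Rian, Mirg and Rtl1 of the same region were called lower as well. Igf2r, which clears the growth factor IGF2, had 16.9, 23.5 and 26.8 CPM against 39.5, 40.5 and 56.2 CPM in the same order (log2 change -0.92 ± 0.12, adjusted p = 5.37e-06). The median of the list was -0.96, and -0.41 without both doubted libraries, when 6 fell. Ndn and Cdkn1c, given above, are the other members that fell.

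Some globin and red cell membrane genes were nearly undetected with JAK2V617F, while other globin genes were not. Hbb-bs, an adult beta globin, had 0.471, 0.971 and 1.42 CPM in JAK2V617F; Ezh2 +/- libraries against 3.92, 65.1 and 204 CPM in Ezh2 +/- libraries, without overlap (adjusted p = 1.54e-05). The alpha globins Hba-a1 and Hba-a2, whose counts are identical and cannot be separated, had 0 to 0.207 CPM against 0.541 to 165 CPM in the same order (adjusted p = 5.36e-05). The beta globins Hbb-b2 and Hbb-bt, by contrast, had 16.4 to 56.0 CPM in JAK2V617F; Ezh2 +/- libraries against 18.6 to 92.2 CPM in Ezh2 +/- libraries and did not pass. Slc4a1, the band 3 anion exchanger of the red cell membrane, had 1 count over all 8 JAK2V617F; Ezh2 +/- libraries against 1463 counts in Ezh2 +/- libraries, 2 of which were at 0 (adjusted p = 9.50e-04). Within the Ezh2 +/- group the globins varied widely, and the lowest libraries, batch 2 replicates 2 and 3, had 4.06 and 3.92 CPM of Hbb-bs. Of 44 erythroid genes 14 fell and 2 rose, with a median of -0.45, and without both doubted libraries 10 fell and 1 rose, with a median of -0.21. Of all genes tested 4.36% fell and 4.9% rose, so the 2 that rose are not above that share and are no result about the list. The count that rose was 4 without the Ezh2 +/- library of batch 2 replicate 3. It was 3 without that of batch 1 replicate 1, and 1 without any 1 of those of batch 1 replicate 3 and batch 2 replicates 1 and 2 or the JAK2V617F; Ezh2 +/- library of batch 1 replicate 2. The list as a whole did not separate the groups, with a summed level of 5062 to 7663 CPM in JAK2V617F; Ezh2 +/- libraries and 5393 to 7380 CPM in Ezh2 +/- libraries. Gata1, the master factor of the erythroid and megakaryocyte lineages, went the other way, with 28.1, 55.7 and 88.6 CPM in JAK2V617F; Ezh2 +/- libraries against 6.16, 16.3 and 35.3 CPM in Ezh2 +/- libraries (log2 change 1.81 ± 0.38, adjusted p = 0.00187). The part of red cell precursors in the sorted samples in this result was not tested.

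Megakaryocyte genes, several of which LT-HSCs share, were lower as a list. Their summed level was 4326, 5010 and 5975 CPM in JAK2V617F; Ezh2 +/- libraries against 6067, 6380 and 6647 CPM in Ezh2 +/- libraries, with no overlap. Of 36 genes 5 fell and 1 rose, with a median log2 change of -0.27, against 4.36% lower and 4.9% higher among all genes tested. The count that rose is not above that share and is no result about the list. The median was -0.08 in batch 1 alone, -0.41 in batch 2 alone, -0.49 in females alone and -0.04 in males alone. The gene that rose, Cd9, a membrane protein of platelets and other cells, was lost without both doubted libraries and with the replicate block. The count that rose was 3 without the Ezh2 +/- library of batch 2 replicate 3, and 0 without that of batch 1 replicate 3 or the JAK2V617F; Ezh2 +/- library of batch 1 replicate 2 or batch 2 replicate 4. Mmrn1, a platelet granule protein, fell by 0.99 on the log2 scale (SE 0.17, adjusted p = 1.25e-04), and Nbeal2, needed for platelet granules, by 0.79 (SE 0.11, adjusted p = 9.84e-06). Defining platelet genes did not move together. Pf4 had 47.3, 95.2 and 185 CPM in JAK2V617F; Ezh2 +/- libraries against 15.8, 38.5 and 333 CPM in Ezh2 +/- libraries. Gp9 had 65.5, 75.0 and 90.2 CPM against 61.8, 97.2 and 107 CPM in the same order.

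Early response genes rose in part. Of 33, 7 rose and none fell, against 4.9% higher and 4.36% lower among all genes tested. The median log2 change of the list was -0.06, and 26 did not pass. That median was 0.16 without both doubted libraries. Egr2, a transcription factor, had 36.4, 70.1 and 113 CPM in JAK2V617F; Ezh2 +/- libraries against 0.784, 7.61 and 41.3 CPM in Ezh2 +/- libraries (2.45 ± 0.56, adjusted p = 0.00405). Ier3, an early response and survival gene, rose by 1.17 ± 0.17 (adjusted p = 2.43e-05), Dusp2, a phosphatase of ERK and p38, by 1.08 ± 0.18 (adjusted p = 1.14e-04), and Egr1 by 0.88 ± 0.15 (adjusted p = 1.15e-04). Fos, part of the AP-1 factor, had 2221, 4829 and 7073 CPM against 1851, 3831 and 5773 CPM in the same order and did not pass (0.34 ± 0.26, adjusted p = 0.479).

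Chromatin regulators showed small changes beside those of the cell cycle. Ezh1, the other catalytic subunit of PRC2, used in resting cells, had 60.2, 83.8 and 121 CPM in JAK2V617F; Ezh2 +/- libraries against 109, 130 and 164 CPM in Ezh2 +/- libraries (log2 change -0.65 ± 0.14, adjusted p = 0.00171), and 7 of 8 JAK2V617F; Ezh2 +/- libraries lay below every Ezh2 +/- library. The list counts that follow here are to be read against the 4.9% of all genes tested that rose and the 4.36% that fell. Of the 12 PRC2 genes, 2 rose and 2 fell. Mtf2, an accessory subunit, was called higher only with the doubted libraries in the fit. Rbbp4, a histone-binding subunit, rose by 0.41 ± 0.09 (adjusted p = 0.00245), and Phf1, another accessory subunit, fell by 0.99 (SE 0.23, adjusted p = 0.00418). The core subunits Eed and Suz12 had log2 changes of 0.19 ± 0.15 and 0.14 ± 0.15 that did not pass. Of 19 PRC1 genes 3 fell and none rose, 1 without both doubted libraries. Cbx6, a chromobox reader, fell by 0.55 (SE 0.10, adjusted p = 4.60e-04). Dnmt1, the maintenance DNA methyltransferase that acts at the replication fork, rose by 0.99 ± 0.19 (adjusted p = 6.73e-04). Of the 18 genes of its list 4 rose, but Dnmt1 alone passed without both doubted libraries. Of 18 tested Hoxa and Hoxb genes 5 fell and none rose, with a median of -0.78, and Hoxa5 fell by 1.13 (SE 0.21, adjusted p = 4.31e-04). Without both doubted libraries, or without the JAK2V617F; Ezh2 +/- library of batch 1 replicate 2 or batch 2 replicate 4 or the Ezh2 +/- library of batch 2 replicate 2, the count was 3.

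Of the fetal stem cell programme, 2 genes fell, against 4.36% of all genes tested. None of 10 tested genes of this list had a positive log2 change. Igf2bp2, an RNA-binding protein of growing cells, had 4.03, 7.74 and 9.82 CPM in JAK2V617F; Ezh2 +/- libraries against 19.5, 30.7 and 59.0 CPM in Ezh2 +/- libraries (log2 change -2.25 ± 0.34, adjusted p = 2.86e-05), with no overlap. Lin28b, which blocks the let-7 family of microRNAs, was at 0 in all 8 JAK2V617F; Ezh2 +/- libraries and had 154 counts in Ezh2 +/- libraries, 2 of which were at 0. It was called lower (adjusted p = 2.73e-04). At the limit of 3 counts over the group, its pooled level was at least 82.0-fold lower, which again covers counting error only.

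Other lists held few calls, to be read against the 4.9% of all genes that rose and the 4.36% that fell. Of 55 interferon-stimulated genes 6 fell and 2 rose, and the median was -0.23. Ifit1, an antiviral RNA-binding protein, fell by 1.05 (SE 0.25, adjusted p = 0.00496) and Irf1 rose by 0.62 ± 0.17 (adjusted p = 0.0145). Without both doubted libraries, or without any 1 of the Ezh2 +/- libraries of batch 2 replicates 2 and 4 or the JAK2V617F; Ezh2 +/- library of batch 2 replicate 3, 3 interferon genes fell. Of 35 ribosome biogenesis genes 6 rose and none fell. The largest, Npm1, nucleophosmin, had 674, 764 and 942 CPM in JAK2V617F; Ezh2 +/- libraries against 394, 496 and 609 CPM in Ezh2 +/- libraries (0.63 ± 0.09, adjusted p = 1.47e-05). That count was 3 without both doubted libraries and 2 without the Ezh2 +/- library of batch 2 replicate 2. It was 3 without the Ezh2 +/- library of batch 1 replicate 2, or without any 1 of the JAK2V617F; Ezh2 +/- libraries of batch 1 replicate 1 and batch 2 replicates 2 and 4. Of 29 lymphoid genes 3 fell, led by Notch1 (-0.87 ± 0.13, adjusted p = 3.31e-05). Of 26 glycolysis and pentose phosphate genes 3 rose and 1 fell, led by the transketolase Tkt (0.60 ± 0.13, adjusted p = 0.00238).

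Other genes with large changes were these. Slc17a8, a vesicular glutamate transporter of neurons, had 86.3, 95.8 and 133 CPM in JAK2V617F; Ezh2 +/- libraries against 4.37, 16.8 and 36.4 CPM in Ezh2 +/- libraries (log2 change 2.33 ± 0.28, adjusted p = 9.04e-07). Alox5, which starts leukotriene synthesis, had 8.20, 19.1 and 41.8 CPM against 0, 3.30 and 8.08 CPM in the same order (2.52 ± 0.71, adjusted p = 0.0194). Tns2, a focal adhesion protein, had 6.04, 11.1 and 19.9 CPM in JAK2V617F; Ezh2 +/- libraries against 61.7, 97.4 and 139 CPM in Ezh2 +/- libraries, the largest fall among genes of at least 3 log2 CPM (-2.998 ± 0.318, adjusted p = 1.73e-07). Plk2, a kinase of the p53 target list, had 64.1, 91.9 and 145 CPM against 195, 340 and 571 CPM (-1.997 ± 0.304, adjusted p = 3.52e-05). In all of these genes the groups did not overlap. Neo1, a guidance receptor, and Jam2, a junction protein of LT-HSCs, fell by 2.27 (SE 0.39, adjusted p = 1.60e-04) and 1.82 (SE 0.24, adjusted p = 5.37e-06). Trib2, a pseudokinase, fell by 1.93 (SE 0.31, adjusted p = 6.91e-05).

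The same JAK2V617F contrast exists with intact Ezh2 and without Ezh2, in libraries that these groups do not share. Without Ezh2, 797 genes passed (5.33%), 461 higher (3.08%) and 336 lower (2.25%). With intact Ezh2, 780 passed (5.22%), 455 higher (3.04%) and 325 lower (2.17%). These groups were smaller, and by label their sexes were not balanced. All controls were female, while every batch 2 JAK2V617F library with intact Ezh2 was male. Most Ezh2 -/- libraries were male and most JAK2V617F; Ezh2 -/- libraries female. The main fit had no sex term, so sex is in part confounded with JAK2V617F in both contrasts. Of the 1384 genes called in heterozygous cells, 1341 (96.9%) had the same sign in intact cells and 1316 (95.1%) in null cells, against 70.4% and 68.0% of all genes tested. Calls shared with intact cells numbered 504, which is 36.4% of the heterozygous and 64.6% of the intact calls, and all had the same sign. Calls shared with null cells numbered 453, which is 32.7% of the heterozygous and 56.8% of the null calls, also all of the same sign. Across 9911 genes with a mean of at least 3 log2 CPM, the log2 changes correlated with Pearson's r of 0.759 for intact and 0.69 for null cells. Over all 14945 genes tested, r was 0.293 for intact and 0.336 for null cells, the other way round. Genes are not independent replicates, and all 3 contrasts share the fit and its batch term.

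**Figure D4:**
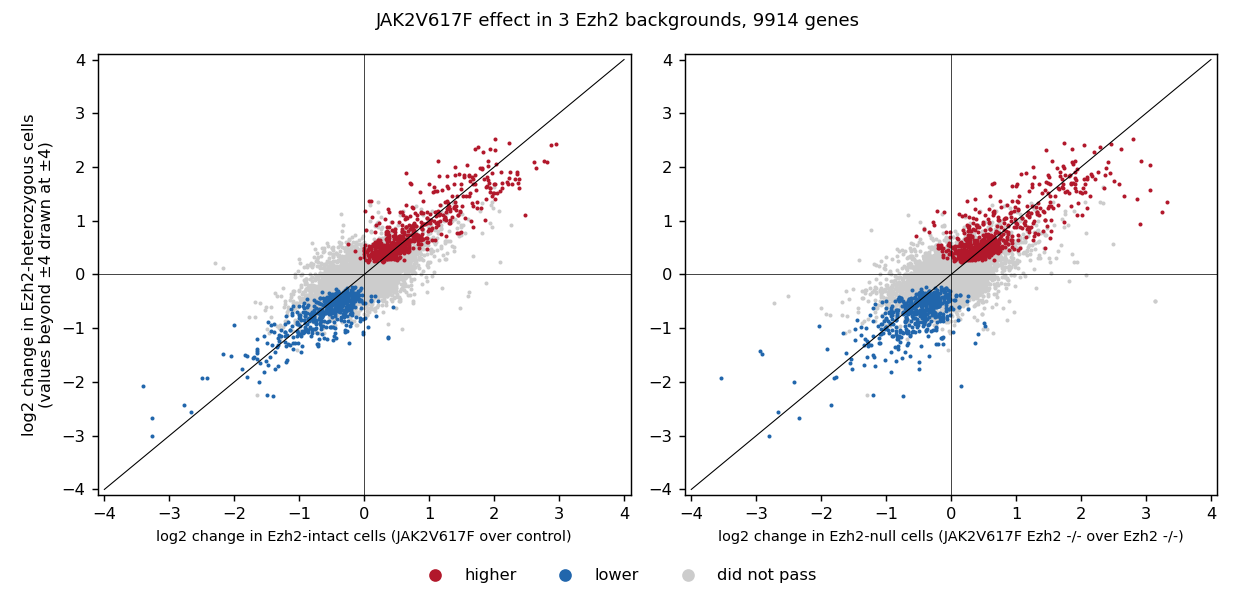
Each point is 1 of 9911 genes, with the log2 change by JAK2V617F in heterozygous cells on the y axis and in intact (left) or null (right) cells on the x axis. Red and blue genes were called higher and lower in heterozygous cells, and the line marks equal changes. Values beyond 4 are drawn at 4 or -4. Called genes lie mostly along the line in both panels.

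List medians were close in some groups and not in others. The medians in heterozygous, null and intact cells were 1.71, 1.86 and 1.91 for mitosis, 0.76, 0.88 and 0.97 for DNA replication and -0.44, -0.41 and -0.50 for stem cell identity. In the same order they were -0.06, -0.47 and 0.70 for early response genes, -1.45, -0.38 and -1.42 for the fetal programme and -0.23, 0.08 and -0.13 for interferon-stimulated genes. Early response genes had 7 higher and 0 lower calls in heterozygous, 1 and 3 in null, and 7 and 0 in intact cells. The erythroid list had 14 lower genes in heterozygous, 4 in null and 1 in intact cells. Differences between the medians and counts of lists were not tested. The difference of effects was tested for each gene. Between heterozygous and intact cells, no gene passed in edgeR (647 had an unadjusted p under 0.05), 23 passed in the DESeq2 Wald test and 0 in limma-voom. Between heterozygous and null cells 4 genes passed in edgeR (0.0268% of genes tested), of which 1 was positive (0.00669%) and 3 were negative (0.0201%), 37 in DESeq2 and 2 in limma-voom. With a sex term in edgeR, 0 genes passed between heterozygous and intact cells, and 5, these 4 among them, between heterozygous and null cells.

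Those 4 genes were Socs2, Hbb-b2, Hbb-bt and Igf2. By the edgeR test, Socs2 rose less in heterozygous than in null cells. It had a median of 162 CPM in JAK2V617F; Ezh2 +/- libraries against 49.4 CPM in Ezh2 +/- libraries, while JAK2V617F; Ezh2 -/- libraries had 110, 241 and 312 CPM (lowest, median, highest) against 18.2, 29.4, 32.4 and 35.1 CPM in the 4 Ezh2 -/- libraries. The log2 changes were 1.56 ± 0.19 in heterozygous, 3.06 in null and 1.72 in intact cells, and the difference of heterozygous minus null was -1.50 (adjusted p = 0.0491). Hbb-b2 and Hbb-bt, beta globins of identical counts, did not pass in heterozygous cells, with 16.4, 32.98 and 56.0 CPM in JAK2V617F; Ezh2 +/- libraries against 18.6, 35.2 and 92.2 CPM in Ezh2 +/- libraries (-0.50 ± 0.34, adjusted p = 0.419). In JAK2V617F; Ezh2 -/- libraries they had 66.4, 248 and 359 CPM against 18.9, 21.4, 29 and 47.6 CPM in Ezh2 -/- libraries, and the difference of effects was -3.63 (adjusted p = 0.00342). Igf2, the imprinted growth factor, had 0, 1.89 and 4.54 CPM in JAK2V617F; Ezh2 +/- libraries against 0, 6.56 and 11.9 CPM in Ezh2 +/- libraries, which did not pass (adjusted p = 0.163). It was at 0 in all 6 JAK2V617F; Ezh2 -/- libraries, against 4.21, 5.55, 7.43 and 7.53 CPM in Ezh2 -/- libraries. The fitted difference for Igf2 rests on a group at 0 and gives no size (adjusted p = 0.0491). Without both doubted libraries Hbb-b2 and Hbb-bt still passed (adjusted p = 0.00837), while Socs2 and Igf2 did not (adjusted p = 0.0937 for both). When 1 library was left out, the adjusted p of Socs2 ranged up to 0.0743 and that of Igf2 up to 0.0755. In those fits Socs2 passed only without the Ezh2 +/- library of batch 2 replicate 1, 3 or 4, and Igf2 was lost in many. The adjusted p of Socs2 and Igf2 were 0.0674 and 0.654 in limma-voom, and 0.19 and 0.119 in edgeR with the replicate block.

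**Figure D5:**
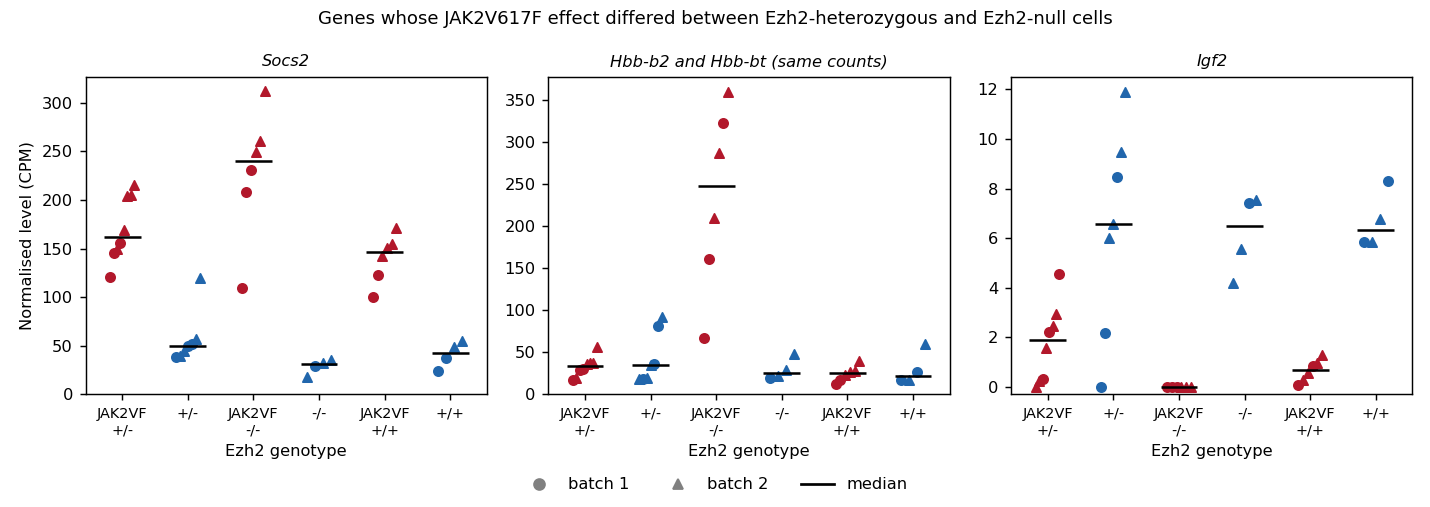
Each point is 1 library, the x axis gives the Ezh2 genotype with JAK2V617F (red, left of each pair) or without it (blue), and the y axis is the normalised level in CPM. Circles are batch 1, triangles batch 2, and bars are medians. JAK2V617F; Ezh2 -/- libraries reach 312 CPM of Socs2 and 359 CPM of Hbb-b2 and have no Igf2, while JAK2V617F; Ezh2 +/- libraries end at 216 CPM of Socs2 and 56.0 CPM of Hbb-b2.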

How the data were processed

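RNA of 1000 sorted LT-HSCs per library was amplified with a low-input SMARTer kit, per the labels' protocols. The authors deposited raw counts per gene for each of 35 libraries, and the submitters' processing notes name STAR and the mm9 build; no version of STAR, counter or strand setting was found there (not given in the sources used here). Each table held 19138 genes and 1 separately counted part of Ezh2, which stayed out of library sizes and tests. Totals were 13.55 to 48.56 M counts; intervals and limits from counts cover counting error only.

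All 35 libraries were fitted in edgeR 4.0.16 (R 4.3.3) with group and batch as terms, TMM scaling and filterByExpr (minimum count 10), which kept 14945 genes and left out 4193. The test was the quasi-likelihood test with Benjamini-Hochberg adjustment at 0.05 over all genes tested, and the script was tested on simulated data. CPM values are TMM-scaled, except that of Xist, which is per M of the library's unscaled total. The share of Ezh2 counts in its separately counted part was compared by an exact two-sided permutation test. Alternatives were DESeq2 size factors, no filter, the DESeq2 1.42.0 Wald test, limma-voom (limma 3.58.1), a sex term, a replicate block, the compared groups only, each batch or sex alone, and libraries left out singly or both doubted ones together.

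The rule for genes to name took Jak2, Ezh1 and Ezh2. It also took, from the called genes with a mean of at least 3 log2 CPM, the 12 that rose most and the 12 that fell most, leaving out Xist and predicted, RIKEN, unnamed and Y-linked genes. Each list added up to 4 called genes by adjusted p. It further took every member of 4 lists (JAK and STAT genes, STAT5 targets, cytokine receptors, PRC2), and the 5 smallest adjusted p of each difference of effects. Other genes were named after their values were seen, among them the Mcm genes, Ndc80, Hlf, Lmo2, Prdm16, Gata1, Rian, Mirg and Rtl1. The comparison, the 30 gene lists and the tests were chosen with earlier results of these data known. Some genes that the rule took are not reported here. Promoter windows came from RefSeq on GRCm38.p6, matched by gene; no coordinate was moved between builds.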

Additional observations from a re-analysis of the deposited data

Results flagged for a closer look

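In 10 of 212 groups of libraries checked, 1 library stood far from the others of its group; chance flags about 5% of groups. Among Ezh2 +/- libraries, batch 2 replicate 2 was highest for Socs2 at 120.0 CPM and for Neo1 at 81.2 CPM, batch 1 replicate 3 for Ifit1 at 146.0 CPM and for Cdkn2c at 42.1 CPM, and batch 2 replicate 4 for Spc24 at 28 CPM. Among JAK2V617F; Ezh2 +/- libraries, batch 1 replicate 3 was highest for Ccnd1 at 51.5 CPM and for Jam2 at 21.7 CPM. The JAK2V617F; Ezh2 +/- library of batch 2 replicate 5 was lowest for Csf2rb at 61.8 CPM, and that of batch 2 replicate 3 was lowest for Igf2r at 16.9 CPM. Slc4a1 had 0.0413 CPM in the JAK2V617F; Ezh2 +/- library of batch 1 replicate 2, from 1 count, and was at 0 in the others of that group.

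The effect of JAK2V617F differed between heterozygous and null cells, by the interaction test of edgeR, for 4 genes. The difference of heterozygous minus null was -3.63 on the log2 scale for Hbb-b2 and for Hbb-bt, whose counts are identical, and -1.50 for Socs2. For Igf2 the fitted difference was 8.59, which is no measure of size because all 6 JAK2V617F; Ezh2 -/- libraries were at 0.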

How the results depend on the processing

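Against 1384 called genes, 872 passed in a fit of the compared groups only, 206 in batch 1 alone, 576 in batch 2 alone, 325 in females alone and 106 in males alone, all with fewer libraries; leaving out 1 library gave 1142 to 1558. DESeq2 called 1705 and limma-voom 965. No sign was found that the replicate numbers pair the samples: same-numbered libraries had correlations of -0.029 to 0.065, and 2 of 7 correlated best with their own number. A weak pairing could be missed in groups this small. A fit with the replicate block called 1250 genes, 1150 of them among the 1384, and 2 in place of 4 for the difference from null cells. For the difference from intact cells DESeq2 called 23 genes against 0 in edgeR. For the difference from null cells DESeq2 called 37, limma-voom 2, the fit without both doubted libraries 2, each batch and each sex alone 0, and leaving out 1 library 2 to 6. The difference in the Ezh2 part ranged over 1.31 to 2.90 percentage points when 1 library was left out. Of 105 genes checked, the log2 change of 6 changed sign under an alternative, none of them called: Epor was 0.103 in males alone, Hbb-b2 and Hbb-bt 0.272 in females alone, Myc -0.169 and Pim1 -0.432 in batch 1 alone, and Suz12 -0.017 in batch 2 alone. No difference from intact cells could be fitted in males alone, for lack of a male control, and none in the fit of the compared groups only. Apart from libraries left out, the causes of these shifts were not tested.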
